A study of Drosophila melanogaster with 5 samples.

Results

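Hemocytes are the circulating blood cells of insects, and their RNA levels were compared here between Drosophila melanogaster larvae of a Su(H) stock, in the third instar, and larvae of the control strain. Su(H), Suppressor of Hairless, is the DNA-binding protein through which the receptor Notch acts on its target genes. The comparison took every probe set of the array that was not a manufacturer's control and whose level reached 4.5 on the log2 scale on the Su(H) array, the control array or both. Of 18769 such probe sets on the array, 10091 passed this filter, and 8754 of these named 1 gene each. They gave 8276 of the 11982 genes named on the array, each taken as the mean of its passing probe sets. At the edge of the filter, a probe set of side-IV stood at 4.5 on the Su(H) array and 4.26 on the control array and was kept, while Cyp6a16, just short of the filter on the Su(H) array and at 4.43 on the control array, was not.

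The series holds 5 arrays, each hybridised with amplified RNA from hemocytes pooled from 200 to 300 larvae. The larvae of the Su(H) array came from stock BL417, whose genotype the labels give as Su(H)l(417) and which they call a loss-of-function mutant. Other arrays held hemocytes of spen(GE10359), a P-element line of split ends labelled as loss of function, of the E(spl)rvl stock BL199, also labelled as loss of function, and of stock BL1564, labelled as EGFR gain of function. The control strain was W1118. The labels do not say whether the Su(H) larvae were homozygous, whether the stock and the control share a genetic background, or which sex the larvae were. With 1 array a group no test is possible, so folds and counts below describe these arrays only, and no error between animals can be given.

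Notch is cut when a neighbouring cell presents its ligand, and its inner part then joins Su(H) and Mastermind on DNA to switch on targets such as the Enhancer of split genes. Without that signal, Su(H) binds Hairless, which brings the corepressors Groucho and CtBP and keeps the same genes off. Larval blood holds mostly plasmatocytes, which engulf particles, and some crystal cells, which store prophenoloxidase for melanization and depend on Notch and Su(H) for their formation. Lamellocytes, flat cells that wrap parasite eggs, are rare in healthy larvae.

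The arrays had like medians, between 4.46 and 4.54, and the highest of the 27 Bacillus probe sets, which have no target in fly RNA, stood at 4.28 on the Su(H) array and 4.33 on the control array. A fold is written as at least where the dimmer level lay below that probe set of its own array. Hemocyte genes gave strong signal on both arrays, with Hml, a clotting protein of plasmatocytes, at 14.36 on the Su(H) array and 13.93 on the control array, and the prophenoloxidase PPO2 at 14.53 and 14.20 on the same arrays. The 3′ probe sets of 3 control transcripts exceeded their middle probe sets by 2.59 on the Su(H) array and 1.57 on the control array, a larger 3′ excess on the Su(H) array by 1.02, and its part in the differences below was not tested. The control array had the most genes at least 2-fold above all other arrays, 515 of the 8276. The Su(H) array had 133, spen 110, E(spl) 48 and EGFR 22. The level filter read only the Su(H) and control arrays, so genes bright on another array alone were left out. This holds down the counts of spen, E(spl) and EGFR. Below all others by 2-fold were 23 genes on Su(H), 146 on spen, 42 on E(spl), 53 on EGFR and 10 on the control. Among these filtered genes the control array thus stood apart upward only. Many lists are therefore also given against the mean of the spen, E(spl) and EGFR arrays, in which the control has no part but the Su(H) array is the same. Su(H) itself has no probe set that names it alone in the annotation used here, so the stock's label could not be checked from that gene.

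More probe sets were lower than higher on the Su(H) array. At least 2-fold higher were 757 of the 10091 probe sets (7.5%) and at least 2-fold lower were 1396 (13.8%), while 7938 differed by less. By gene, 607 of 8276 were higher (7.33%) and 1254 lower (15.2%), with a median difference of −0.03. The surplus of lower probe sets held up to 4-fold, with 209 higher and 488 lower, and was gone at 8-fold, with 69 higher and 67 lower. Against the mean of the 3 other mutant arrays the balance turned, with 459 probe sets higher and 199 lower. In that comparison 367 of 7937 named genes were at least 2-fold higher (4.62%) and 162 at least 2-fold lower (2.04%). These shares, and the 7.33% and 15.2% against the control, are the base beside which the list counts below are to be read. Where a gene had several passing probe sets, their differences had a pooled SD of 0.617 (354 genes), so a 2-fold difference of 1 probe set lies within 2 such SDs.

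**Figure D1:**
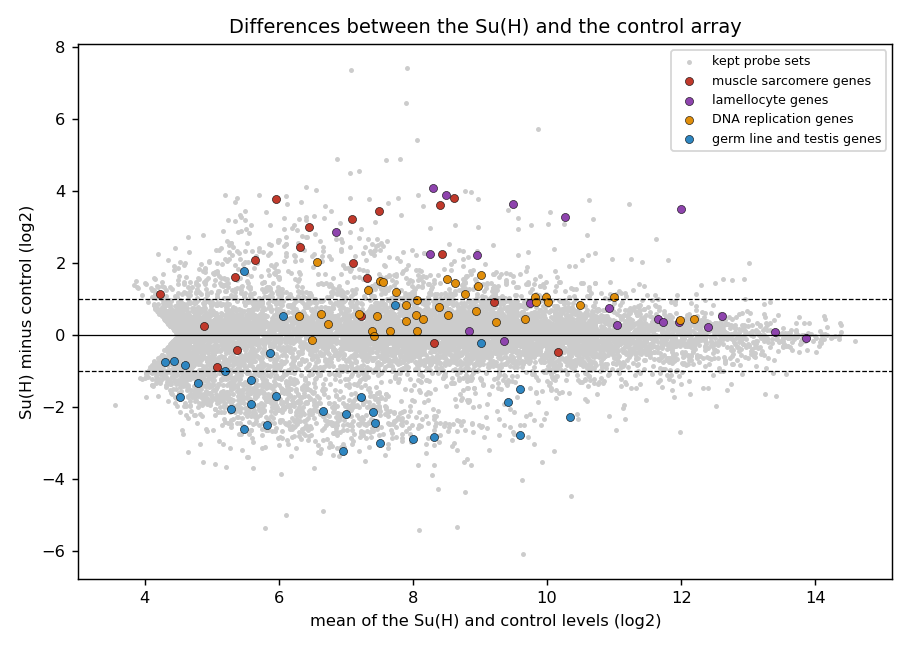
Difference of log2 levels (Su(H) minus control, vertical axis) against the mean of both levels (horizontal axis, log2) for the 10091 kept probe sets in grey, with 4 gene lists in colour, 1 point per gene. Dashed lines mark 2-fold. Muscle, lamellocyte and DNA replication genes lie mostly above 0, and germ line and testis genes mostly below −1.

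Lamellocyte genes held some of the largest differences among blood cell markers. Of 20 measured genes of that list, 8 were at least 2-fold higher on the Su(H) array and none lower, with a median of 0.64. atilla, a GPI-anchored protein that is the usual lamellocyte marker, stood at 10.34 on the Su(H) array, 6.58 on spen, 8.23 on E(spl), 8.58 on EGFR and 6.26 on the control array, which makes it 16.9-fold higher than the control. The alpha integrin ItgaPS4 stood at 11.31 on Su(H), 8.48 on spen, 9.35 on E(spl), 8.56 on EGFR and 7.69 on the control, 12.3-fold higher. Both had their highest level on the Su(H) array and their lowest on the control array. The other genes past 8-fold were mdu (10.43 on Su(H), 6.56 on the control), CG1208 (13.74 on Su(H), 10.25 on the control) and CG15347 (11.91 on Su(H), 8.63 on the control), all with the Su(H) array on top. Drip, an aquaporin, was 7.18-fold higher, ItgaPS5, another alpha integrin, 4.75-fold, and shot, which ties actin to microtubules, 4.61-fold. For ItgaPS5 the EGFR array stood higher still, at 9.75 against 9.38 on Su(H).

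The other 12 lamellocyte genes stayed under 2-fold. PPO3, the prophenoloxidase of lamellocytes, stood at 8.89 on the Su(H) array and 8.78 on the control array. betaTub60D, a tubulin often used as a lamellocyte marker, stood at 13.44 on the Su(H) array and 13.36 on the control array, and talin (rhea) at 12.87 and 12.34 on these arrays. These 3 differ far less than atilla and the integrins. Set against the mean of the 3 other mutants, 9 of the 20 lamellocyte genes were at least 2-fold higher, none lower, and the median was 0.82. In pooled RNA a larger number of cells of a type and more RNA per cell cannot be told apart.

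**Figure D2:**
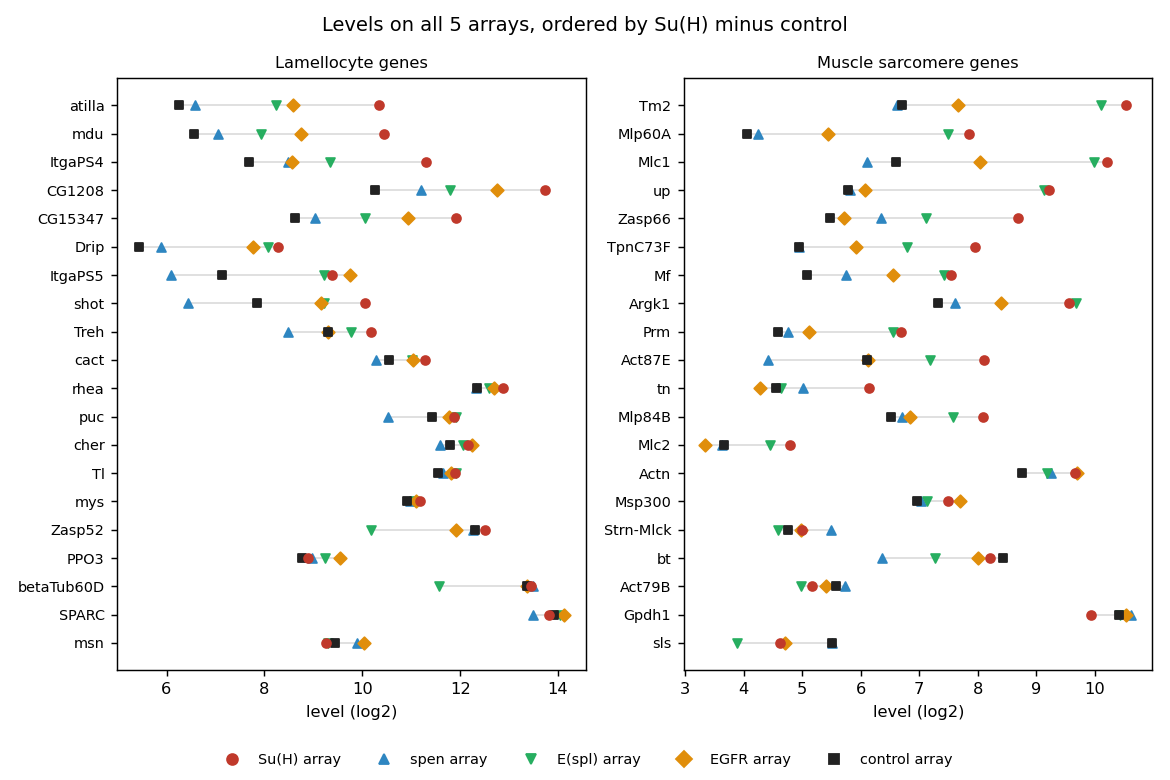
Log2 levels of the 20 lamellocyte genes (left) and the 20 muscle sarcomere genes (right) on all 5 arrays, 1 marker per array, ordered from the largest to the smallest difference between the Su(H) and control arrays. The Su(H) array is the highest of 5 for 12 lamellocyte genes and for 12 muscle genes, and the E(spl) array comes close to it for several muscle genes.

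Crystal cell genes were higher on the Su(H) array for 6 of 13 measured genes by 2-fold and lower for none, with a median of 0.51. lz, the Runx factor that specifies crystal cells, stood at 5.72 on the Su(H) array, 3.19 on spen, 6.90 on E(spl), 7.43 on EGFR and 3.89 on the control array, at least 2.63-fold higher than the control. peb and klu, zinc-finger genes known as Notch targets in these cells, were 3.83-fold and 2.80-fold higher, with peb at 8.53 on Su(H) and 6.59 on the control and klu at 6.26 on Su(H) and 4.78 on the control. The largest difference was that of CG6733, at 11.54 on Su(H), 4.38 on spen, 11.92 on E(spl), 10.18 on EGFR and 8.47 on the control. The enzymes that define the cell type differed little: PPO1 was at 14.53 on Su(H) and 14.26 on the control. For none of the 13 genes was the Su(H) array the highest of the 5. Set against the other mutants' mean, 2 of 13 were at least 2-fold higher, with a median of 0.56, and there lz lay 0.12 below.

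Plasmatocyte genes were close between both arrays. Of 17 measured, 16 differed by less than 2-fold, with a median of 0.04, among them the receptor NimC1 (13.43 on Su(H), 13.11 on the control), the receptor eater (13.82 on Su(H), 13.93 on the control), peroxidasin (Pxn, 13.62 on Su(H), 13.42 on the control) and the GATA factor srp (12.20 on Su(H), 12.51 on the control). NimC2, a Nimrod receptor, was the exception, at 6.07 on Su(H), 10.48 on spen, 4.18 on E(spl), 5.40 on EGFR and 8.10 on the control, 4.08-fold lower. Of the genes for lymph gland progenitors and their niche, 5 of 9 passed the filter, and bam was 3.40-fold higher, at 6.36 on Su(H) and 4.59 on the control.

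Notch pathway genes themselves differed little. Among all genes 77.5% stayed under 2-fold, 7.33% were higher and 15.2% lower. Against the other mutants' mean 1 Notch pathway gene was higher and 2 were lower, beside 4.62% and 2.04% of all genes. Of 24 measured genes of the list 22 stayed under 2-fold of the control, none was at least 2-fold higher, and the median was 0.11. The receptor-cleaving protease kuz (10.87 on Su(H), 10.54 on the control), presenilin (Psn, 10.12 on Su(H), 10.33 on the control), the corepressor Groucho (gro, 8.53 on Su(H), 8.21 on the control) and CtBP (8.11 on Su(H), 7.77 on the control) illustrate this. Hairless (H), the partner of Su(H) in repression, had probe sets that disagreed: 1 stood at 8.72 on Su(H) and 8.61 on the control, the other at 8.07 on Su(H) and 6.72 on the control. Both lower genes act on the receptor or its traffic. bib, a channel-like membrane protein that assists Notch signalling, was at 5.14 on Su(H), 8.34 on spen, 4.16 on E(spl), 6.18 on EGFR and 8.49 on the control, 10.2-fold lower, and fng, which adds sugars to Notch, was at 5.47 on Su(H), 10.37 on spen, 5.38 on E(spl), 5.07 on EGFR and 7.03 on the control, 2.95-fold lower. The E(spl) array had lower levels of both than the Su(H) array. spen, whose protein has been tied to Notch repression, was 1.95-fold higher, at 10.75 on Su(H) and 9.79 on the control.

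Targets in the Enhancer of split and Bearded families were few above the filter, at 5 of 13 genes. E(spl)m3-HLH, a repressor of the helix-loop-helix class, stood at 8.92 on Su(H), 6.16 on spen, 7.76 on E(spl), 9.27 on EGFR and 7.24 on the control, 3.19-fold higher. Tom (6.13 on Su(H), 4.77 on the control) and Ocho (6.46 on Su(H), 5.32 on the control), Bearded-family inhibitors of Notch ligand endocytosis, were 2.57-fold and 2.21-fold higher and had their highest level on the Su(H) array. E(spl)mbeta-HLH was at 10.30 on Su(H) and 9.88 on the control. The median of these 5 was 1.15, and 0.21 when the 8 genes below the filter were counted too. E(spl)m8-HLH, Notch and Delta have no probe set that names 1 of them alone in the annotation used here.

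Muscle genes gave the list with the largest positive median, 1.80, with 13 of 20 measured genes at least 2-fold higher and none lower. Tropomyosin 2 (Tm2) stood at 10.52 on Su(H), 6.62 on spen, 10.10 on E(spl), 7.66 on EGFR and 6.71 on the control, a level higher by 3.81 on the log2 scale. The myosin light chain Mlc1 stood at 10.20 on Su(H), 6.11 on spen, 9.98 on E(spl), 8.03 on EGFR and 6.60 on the control, 12.1-fold higher. For both genes the Su(H) and E(spl) arrays were high and the spen and control arrays low. Muscle LIM protein Mlp60A (at least 11.5-fold higher), troponin T (up, 10.9-fold), troponin C (TpnC73F, 7.95 on Su(H), 4.95 on the control) and the myosin-filament proteins myofilin (Mf, 5.47-fold) and paramyosin (Prm, 4.25-fold) belong to the same apparatus. Titin-like sls went the other way, at 4.63 on Su(H) and 5.52 on the control, and projectin (bt) stood at 8.20 on Su(H) and 8.43 on the control. The list's median level was 8.02 on Su(H), 5.78 on spen, 7.22 on E(spl), 6.10 on EGFR and 5.68 on the control. Without the control, against the other mutants' mean, 10 of 20 were at least 2-fold higher and the median was 1.02. The part of RNA from muscle in the other results was not tested.

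Gut digestive genes were also higher, among a list in which 27 of 41 genes passed the filter. At least 2-fold higher were 9 and lower 2, with a median of 0.55. Jon99Fi, a serine protease of the Jonah family expressed in the midgut, stood at 11.11 on Su(H), 3.40 on spen, 5.57 on E(spl), 3.06 on EGFR and 4.66 on the control, 87.5-fold higher. Jonah genes have close copies in the genome, so signal of neighbouring copies may add to this probe set. Jon25Biii was at 7.75 on Su(H) and 4.69 on the control, Jon66Ci at 8.65 on Su(H) and 6.12 on the control, and the lipase magro (mag) at 9.47 on Su(H) and 7.67 on the control. The trypsins thetaTry and epsilonTry were lower, by 3.43-fold and 2.12-fold. The Su(H) array was the highest of the 5 for 19 of the 27 genes, and 14 of 27 were at least 2-fold above the mean of the other mutants. The part of RNA from gut in the other results was not tested. Serine proteases and serpins gave 11 of 31 higher and 1 lower, and 13 of 32 higher against the other mutants' mean, and 6 of their 8 largest differences belong to Jonah genes. Outside these, the serine protease Sp212 was at 7.47 on Su(H) and 4.74 on the control, and the serpin Spn88Eb at 8.74 on Su(H) and 6.97 on the control.

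Fat body, salivary gland and cuticle genes did not move together. Among 9 measured fat body genes, fatty acid synthase FASN1 was 4.04-fold higher, at 12.41 on Su(H) and 10.40 on the control, while Fbp1, the receptor for larval serum protein, was 20.7-fold lower, at 6.59 on Su(H), 10.56 on spen, 6.04 on E(spl), 7.44 on EGFR and 10.96 on the control. The serum protein Lsp2 was at 11.46 on Su(H) and 12.12 on the control. Of 15 salivary genes 9 passed the filter, with a median of −0.59. The glue gene Sgs8 stood at 5.80 on Su(H), 11.11 on spen, 5.30 on E(spl), 6.69 on EGFR and 7.97 on the control, and 3 of the 9 were at least 2-fold lower. Among 151 cuticle and epidermis genes 47 passed, 3 of them higher and 6 lower, smaller shares than the 7.33% and 15.2% of all genes. The cuticle gene TwdlG was at 8.52 on Su(H) and 6.20 on the control. The chitinase Cht2 was at 7.23 on Su(H) and 9.09 on the control.

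**Figure D3:**
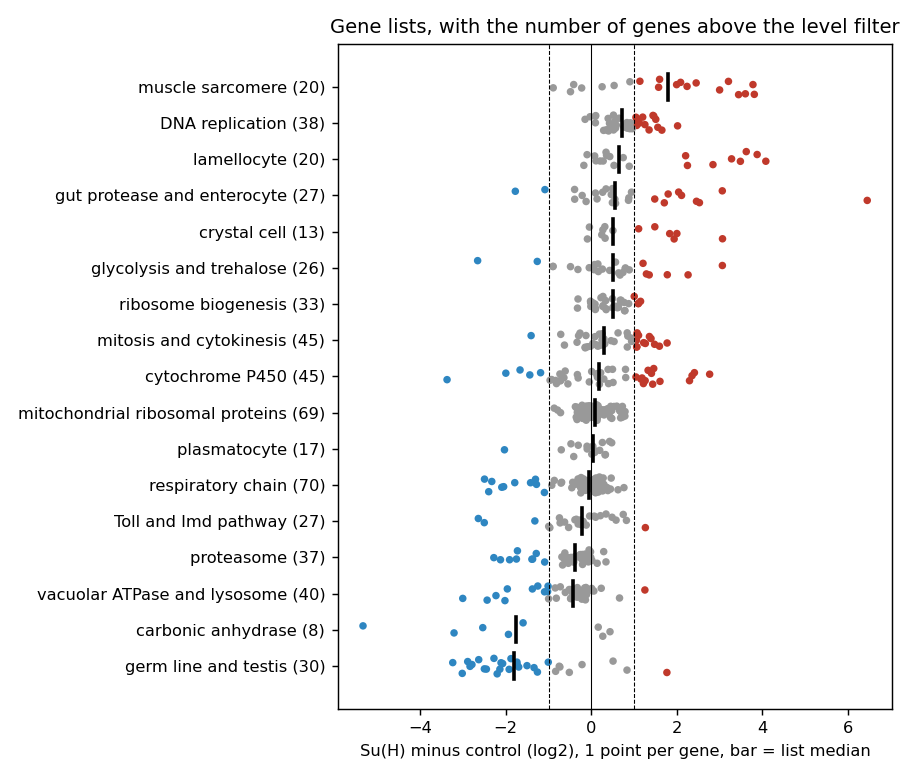
Difference of log2 levels (Su(H) minus control, horizontal axis) for 17 gene lists, 1 point per gene, with a bar at the list median and the number of measured genes in brackets. Red points are at least 2-fold higher and blue points at least 2-fold lower. Medians run from 1.80 (muscle sarcomere) to −1.81 (germ line and testis).

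DNA replication genes were higher as a group, by small amounts. Of 38 measured, 36 lay above the control, 13 of them by at least 2-fold, and none was 2-fold lower, with a median of 0.71. The origin recognition subunit Orc1 stood at 7.58 on Su(H), 5.63 on spen, 6.90 on E(spl), 7.89 on EGFR and 5.56 on the control, 4.05-fold higher. Thymidylate synthase (Ts) was 3.14-fold higher, the licensing factor dup 2.94-fold, the helicase subunit Mcm3 2.72-fold and the large ribonucleotide reductase subunit RnrL 2.06-fold. Their levels lay near those of the E(spl) and EGFR arrays: against the other mutants' mean 1 of 38 was 2-fold higher and the median was 0.33. Mitosis genes showed less, with 13 of 45 higher, 1 lower and a median of 0.29, and 3 of 45 higher against the other mutants' mean. Cyclin B (CycB) was 3.42-fold higher, at 11.01 on Su(H) and 9.23 on the control, the kinesin Klp61F 2.79-fold and the cytokinesis protein anillin (scra) 2.63-fold, while the securin pim was 2.65-fold lower, at 5.42 on Su(H) and 6.82 on the control.

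Genes for making ribosomes and charging tRNA lay mostly above the control by small amounts, where 3938 of the 8276 genes (47.6%) lay above it. In the ribosome biogenesis list 28 of 33 lay above the control and 4 passed 2-fold, the largest being Nnp-1, at 11.67 on Su(H) and 10.52 on the control, and Polr1B, a subunit of RNA polymerase I, at 10.07 on Su(H) and 8.97 on the control. All 16 tRNA synthetase genes lay above the control, with HisRS at 9.94 on Su(H) and 8.92 on the control the 1 gene past 2-fold and a median of 0.33. Both medians, the other being 0.50, are below the pooled SD between probe sets of a gene. That SD describes single probe sets, so it gives no error for a list median. Mitochondrial ribosomal proteins (69 genes) and Polycomb, trithorax and chromatin genes (25) all stayed under 2-fold, with medians of 0.09 and 0.37.

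Germ line and testis genes formed the list with the lowest median, −1.81. Of 36 genes 30 passed the filter, 22 of them at least 2-fold lower and 1, bam, higher, beside 15.2% lower and 7.33% higher among all genes. Some members passed the filter through the control array alone and so could not count as higher. ocn was at 5.33 on Su(H), 4.56 on spen, 5.37 on E(spl), 6.95 on EGFR and 8.57 on the control, 9.44-fold lower. Mst98Cb, a sperm tail protein gene, was at 6.56 on Su(H), 6.49 on spen, 6.29 on E(spl), 8.92 on EGFR and 9.45 on the control, 7.41-fold lower. The testis tubulin betaTub85D was at 9.20 on Su(H), 8.57 on spen, 8.03 on E(spl), 10.25 on EGFR and 11.48 on the control. In each of these 3 genes the control array was the highest of the 5 and the Su(H) array lay within the range of the other mutants. Against the mean of those mutants 23 genes passed the filter, none was 2-fold higher or lower, and the median was −0.01. Against that mean the list thus showed no shift, but the mutants were not alike. The list's median level was 5.76 on Su(H), 4.84 on spen, 5.55 on E(spl), 6.79 on EGFR and 7.19 on the control. The EGFR array thus stood high as well and the spen array low. What sets the arrays apart for this list was not tested.

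Copies of housekeeping genes were lower in the same comparison. Several basic machines of the fly have second versions, many known from the male germ line, which were told here by symbol endings alone. That rule counts ND-MNLL, a regular subunit, as a copy, and leaves eEF1alpha2, VhaM9.7-c and VhaM9.7-d among the others. In 5 lists of such machines, 35 of 55 measured copies were at least 2-fold lower and 1 higher, with a median of −1.37, against 3 lower and none higher of 179 other members, with a median of −0.11. The split was made after the values were seen, so these counts only describe it. Copies gave dimmer signals: the median level of proteasome copies was 4.59 on Su(H) and 6.36 on the control, against 11.10 on Su(H) and 11.44 on the control for other subunits. Copies such as Prosbeta5R1, Rpn13R and COX7AL passed the filter through the control array alone and so tended to count as lower. Among all probe sets whose brighter level was 6 to 8, 24.2% were 2-fold lower, against 7.67% at 10 to 12. Of the proteasome copies 9 of 10 were lower, with Prosbeta5R1 at 4.23 on Su(H), 3.75 on spen, 3.56 on E(spl), 4.85 on EGFR and 6.50 on the control, while none of 27 other subunits was. For translation factors 7 of 10 copies were lower, with eIF4H2 at 5.19 on Su(H) and 8.30 on the control and the cap-binding eIF4E3 at 7.30 on Su(H) and 9.99 on the control, and none of 37 others. Respiratory chain genes gave 10 of 15 copies lower and none of 55 others. Vacuolar ATPase and lysosome genes gave 7 of 9 copies lower, with Vha68-3 at 5.26 on Su(H) and 8.26 on the control, and 3 of 31 others. Vha100-5 is the copy that was higher, at 6.06 on Su(H) and 4.81 on the control. Ribosomal protein copies were lower in 2 of 11, RpL10Aa and RpS19b, and others in none of 29. Against the average of the other mutants, 46 copies passed the filter, none was 2-fold lower and 1 was higher.

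**Figure D4:**
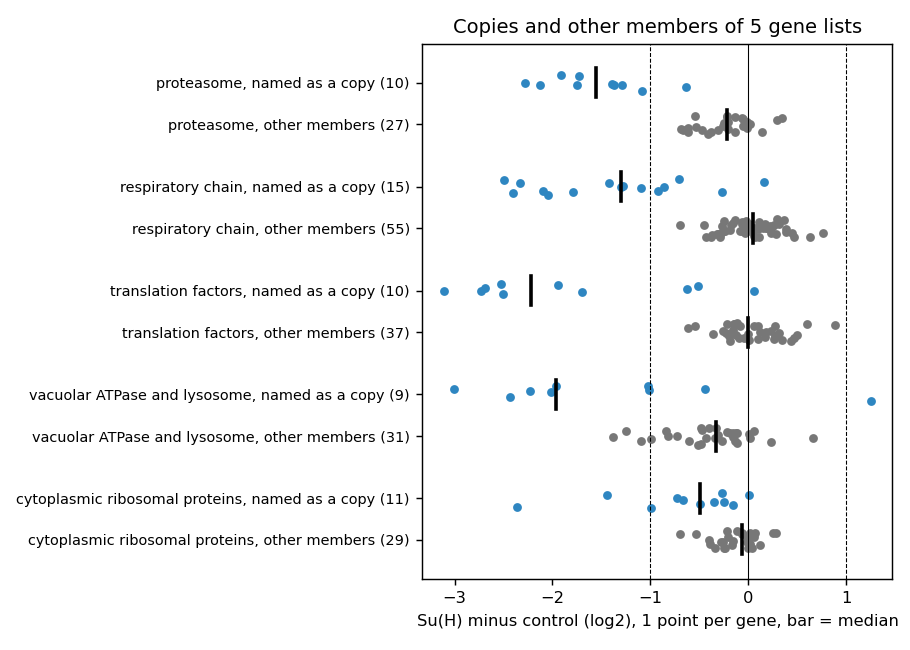
Difference of log2 levels (Su(H) minus control, horizontal axis) for genes named as copies (blue) and other members (grey) of 5 lists, 1 point per gene, bar at the median, number of measured genes in brackets. Dashed lines mark 2-fold. The copies of 4 lists have medians between −2.22 and −1.31, and those of the ribosomal proteins −0.50.

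Immune effector genes differed singly. Of 21 antimicrobial peptide genes 8 passed the filter, 3 lower and 1 higher. Attacin D (AttD) stood at 3.61 on Su(H), 4.07 on spen, 7.26 on E(spl), 6.01 on EGFR and 8.62 on the control, at least 20.3-fold lower. Metchnikowin (Mtk) stood at 4.69 on Su(H), 5.11 on spen, 5.36 on E(spl), 4.76 on EGFR and 6.81 on the control, and Drosomycin (Drs) at 6.80 on Su(H), 6.78 on spen, 7.83 on E(spl), 7.73 on EGFR and 8.91 on the control. Both were highest on the control array. IM33 was 2.30-fold higher, and against the other mutants' mean 1 of the 8 was 2-fold lower and none higher. In the Toll and Imd pathways 3 of 27 genes were lower and 1 higher, smaller shares than those of all genes. pirk, an inhibitor of Imd signalling, was at 7.73 on Su(H), 6.94 on spen, 11.34 on E(spl), 11.14 on EGFR and 10.23 on the control, 5.67-fold lower, and the recognition protein gene PGRP-SB2 was at least 6.20-fold lower. The Toll adaptors differed in direction: tub was 2.50-fold lower, at 9.86 on Su(H) and 11.18 on the control, and Myd88 2.40-fold higher, at 9.84 on Su(H) and 8.58 on the control.

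Of 26 phagocytosis receptors 4 were lower and 2 higher, shares near those of all genes, and 1 of 25 each way against the other mutants' mean. They held the largest negative difference of a named gene. santa-maria, of the CD36 scavenger receptor family, stood at 5.38 on Su(H), 12.30 on spen, 5.13 on E(spl), 5.57 on EGFR and 10.81 on the control, 43.0-fold lower, so the spen and control arrays were high and the rest low. Dscam1, which immune cells use in many splice forms, was 4.92-fold lower, at 7.95 on Su(H), 10.37 on spen, 6.93 on E(spl), 9.27 on EGFR and 10.24 on the control. Class C scavenger receptor Sr-CIII was 3.40-fold higher and CD36-family ninaD at least 2.31-fold higher, but ninaD reached 12.05 on E(spl) against 5.54 on Su(H) and 3.51 on the control. In clotting and melanization, lectin-24A, a secreted lectin induced by wasp eggs, was at 6.92 on Su(H), 4.44 on spen, 6.86 on E(spl), 7.11 on EGFR and 3.78 on the control, at least 6.04-fold higher, and the growth factor Idgf3 3.85-fold higher. Among amine and melanin enzymes, the tyrosine decarboxylase Tdc1 was 28.8-fold higher, at 10.02 on Su(H), 5.58 on spen, 7.28 on E(spl), 8.13 on EGFR and 5.17 on the control, while dopa decarboxylase (Ddc) was 2.06-fold lower.

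Adhesion genes differed in both directions. Beside the alpha integrins, the beta subunit Itgbn stood at 10.85 on Su(H), 7.23 on spen, 9.35 on E(spl), 8.54 on EGFR and 7.08 on the control, 13.7-fold higher and highest on the Su(H) array. The alpha subunit scb was 3.50-fold lower, at 7.89 on Su(H) and 9.70 on the control, and paxillin (Pax), an adaptor of integrin contacts, 5.57-fold lower, at 7.64 on Su(H), 10.21 on spen, 9.77 on E(spl), 8.73 on EGFR and 10.12 on the control. The other 19 of 25 genes of this list were under 2-fold, with 4 higher and 2 lower, beside 7.33% and 15.2% of all genes. Against the other mutants' mean 5 of 25 were higher and 1 lower, beside 4.62% and 2.04% of all genes. In the basement membrane, the laminin alpha chain wb was 2.91-fold higher and the collagen Mp 2.01-fold, while collagen IV (Col4a1, 14.06 on Su(H), 13.74 on the control) and 14 other genes of 17 stayed under 2-fold. Actin and tubulin genes gave 2 of 30 higher and 3 lower, smaller shares than the 7.33% and 15.2% of all genes. The formin form3 was 4.98-fold higher, at 6.66 on Su(H) and 4.34 on the control, and alphaTub85E 2.21-fold higher, while Arpc1 was 2.89-fold lower, at 11.10 on Su(H) and 12.63 on the control, and the fascin sn 2.15-fold lower.

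Sugar genes held several higher members, while lipid genes were as often higher as lower. The trehalose transporter Tret1-1 stood at 11.29 on Su(H), 8.74 on spen, 9.72 on E(spl), 9.89 on EGFR and 8.23 on the control, 8.36-fold higher, and Tps1, which makes trehalose, at 9.31 on Su(H), 5.96 on spen, 8.22 on E(spl), 5.80 on EGFR and 7.04 on the control, 4.80-fold higher. Both were highest on the Su(H) array. Hexokinase Hex-A was 2.44-fold and glycogen phosphorylase Glyp 2.31-fold higher, whereas the sugar transporter sut4 was 6.31-fold lower. Glycolysis and trehalose genes together gave 6 of 26 higher and 2 lower, and against the other mutants' mean 3 higher and 1 lower. Of 24 lipid genes 3 were higher and 3 lower, with a median of 0.09, beside 7.33% higher and 15.2% lower among all genes. Against the other mutants' mean 4 of 24 were higher and none lower. Dgat2, an enzyme of triglyceride synthesis, was at least 4.64-fold higher, bond, a fatty acid elongase, 7.73-fold lower, at 5.06 on Su(H) and 8.01 on the control, and whd, a carnitine palmitoyltransferase of fat oxidation, 2.92-fold lower. The isocitrate dehydrogenase subunit Idh3g was 7.24-fold lower, at 6.81 on Su(H) and 9.66 on the control, with the other 13 measured genes of the tricarboxylic acid cycle under 2-fold.

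Detoxification genes moved unevenly. Among all genes 7.33% were higher and 15.2% lower than the control, and 4.62% higher and 2.04% lower than the other mutants' mean. Of 82 cytochrome P450 genes 45 passed the filter, 14 at least 2-fold higher and 5 lower, and against the mean of the other mutants 14 of 44 were higher and 1 lower. Cyp6a23 was 6.81-fold higher, at 11.99 on Su(H), 8.81 on spen, 11.02 on E(spl), 9.52 on EGFR and 9.22 on the control, and Cyp12a4 5.12-fold higher, at 9.85 on Su(H), 4.03 on spen, 8.18 on E(spl), 5.18 on EGFR and 7.50 on the control. Cyp6g1, known for insecticide resistance, was 10.4-fold lower, at 5.20 on Su(H), 5.32 on spen, 7.78 on E(spl), 4.95 on EGFR and 8.57 on the control. Of 43 redox genes 11 were lower and 4 higher, the higher share being near that of all genes. Against the other mutants' mean 7 of 42 redox genes were lower and 1 higher. Catalase (Cat) was 4.10-fold lower, at 10.11 on Su(H), 12.86 on spen, 9.99 on E(spl), 11.38 on EGFR and 12.14 on the control. The glutathione transferases split, with GstD3 5.86-fold higher and GstE1 3.52-fold lower. Of 13 carbonic anhydrase genes 8 passed, with 5 lower and a median of −1.77, which became −0.048 against the other mutants' mean (2 lower, 1 higher) and 0.064 without the level filter. CAH7 was lower by 40.4-fold, at 5.98 on Su(H), 12.31 on spen, 5.07 on E(spl), 4.48 on EGFR and 11.31 on the control. CAH1, CAH2 and CAH3 were higher by 0.27, 0.16 and 0.44 on the log2 scale.

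Signal and hormone genes held single large differences. The activin-like ligand daw was 4.98-fold higher, at 8.08 on Su(H) and 5.76 on the control, the FGF ligand pyr 4.70-fold, at 6.95 on Su(H) and 4.71 on the control, and Pvf2, a ligand of the hemocyte receptor Pvr, 3.39-fold, at 9.73 on Su(H) and 7.97 on the control. Pvr itself was at 11.36 on Su(H) and 11.83 on the control. Among ecdysone-induced genes 6 of 19 were lower and 1 higher, beside 15.2% and 7.33% of all genes. Against the other mutants' mean 2 of 17 were lower, beside 2.04% of all genes. Eig71Ea was at 3.10 on Su(H), 4.64 on spen, 3.21 on E(spl), 3.14 on EGFR and 8.48 on the control, at least 18.5-fold lower, so the control array alone was well above background for it.

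The single largest positive difference was that of Rnf11, a RING-finger gene, with both probe sets past 2-fold. One stood at 11.62 on Su(H), 4.06 on spen, 8.89 on E(spl), 11.61 on EGFR and 4.21 on the control, at least 156-fold higher. The other stood at 10.75 on Su(H), 8.0 on spen, 9.20 on E(spl), 12.09 on EGFR and 3.39 on the control, so the probe sets differ in their spen level. The zinc transporter gene Zip102B, its neighbour on the chromosome, was 42.9-fold higher, at 10.77 on Su(H), 5.15 on spen, 11.37 on E(spl), 10.41 on EGFR and 5.35 on the control. The calcium pump PMCA, next in order, had 1 of 3 probe sets past 2-fold, at 7.52 on Su(H), 4.48 on spen, 9.08 on E(spl), 8.59 on EGFR and 4.11 on the control. Its other probe sets stood at 8.99 and 10.64 on Su(H) and at 8.52 and 10.09 on the control, under 2-fold. Rnf11 and Zip102B were high on the Su(H), E(spl) and EGFR arrays and low on the control array.

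Runs of at least 3 neighbouring protein-coding genes past 2-fold in 1 direction numbered 28, with 5 higher (17 genes) and 23 lower (75 genes). This count was made after the values were seen. Among all genes 7.33% were higher and 15.2% lower. How many runs these shares alone would give was not computed, so the counts only describe the gene order. The higher runs were Rnf11 with its neighbours, 5 cytochromes (Cyp6a23, Cyp6a19, Cyp6a9, Cyp6a20 and Cyp6a21), the neprilysin-like genes Nepl19, Nepl20 and Nepl21, Plc21C with CG11912 and CG11911, and bero with CG9338 and CG31675. Of these, Rnf11, Cyp6a19, Cyp6a9, Cyp6a21 and CG31675 passed the filter through the Su(H) array alone and so could not count as lower. Their control levels lay below the highest Bacillus probe set of that array, so their differences are only bounds. For Cyp6a19, at 4.71 on Su(H), and Cyp6a21, at 4.76, that bound, taken from 4.33, falls short of 2-fold, as it does for CG31675, at 5.18. Nepl19 stood at 12.84 on Su(H), 9.65 on spen, 12.70 on E(spl), 12.25 on EGFR and 10.76 on the control, 4.22-fold higher. The lower runs included Mst84Da, Mst84Db, Mst84Dc and Mst84Dd with CG17944, and a group of dj, djl, Mst84B and CG1979. Genes of lower runs such as CG9263, CG31788 and CG17944 passed the filter through the control array alone and so could not count as higher. Of the 75 genes in lower runs, 56 passed the filter against the other mutants' mean, with 3 of them 2-fold lower and 2 higher. Of the 17 genes in higher runs, 16 were at least 2-fold higher against that mean and none lower. The Su(H) levels that picked these genes enter that comparison too. Related neighbours can share probes, which was not tested.

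Some genes set the Su(H) array apart from all 4 others. At least 2-fold above every other array were 133 of 8276 genes (1.61%), and 23 (0.278%) were at least 2-fold below. Jon99Fi led the first group. bero, a GPI-anchored protein of the Ly6 family, stood at 9.23 on Su(H), 5.39 on spen, 5.04 on E(spl), 5.57 on EGFR and 5.47 on the control, 13.6-fold above the control. CG4607, of the sugar transporter family, stood at 9.32 on Su(H), 5.45 on spen, 5.97 on E(spl), 5.69 on EGFR and 4.43 on the control, 29.7-fold above. The 4 other arrays lay between 5.04 and 5.57 for bero and between 4.43 and 5.97 for CG4607. CG17633 (8.46 on Su(H), 4.36 on the control), CG1213 (9.66 on Su(H), 5.87 on the control), the epidermal membrane protein Desi (at least 7.30-fold), smp-30 (at least 12.2-fold), CG6908 (9.46-fold), CG14762 (at least 6.66-fold) and the scaffold protein Liprin-gamma (6.99-fold) complete the 10 farthest above.

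Farthest below was Sclp, at 3.82 on Su(H), 7.40 on spen, 8.27 on E(spl), 7.62 on EGFR and 7.22 on the control, at least 7.69-fold below the control. Ir76a, of the ionotropic receptor family of chemosensory genes, stood at 3.64 on Su(H), 8.03 on spen, 7.26 on E(spl), 7.80 on EGFR and 6.68 on the control, at least 5.28-fold below. Both lay below the highest Bacillus probe set on the Su(H) array and above it on the others. The receptor mth, known for its effect on life span, stood at 9.99 on Su(H), 12.37 on spen, 11.64 on E(spl), 11.54 on EGFR and 12.33 on the control, 5.06-fold below. Bmcp, a mitochondrial carrier, had probe sets that disagreed: 1 was at 4.20 on Su(H) and 9.11 on the control, the other at 8.03 on Su(H) and 8.02 on the control. CG1233, Aps, CG6984, CG17928, CG3552 and Ugt37D1 were 2.78-fold to 4.44-fold below the control.

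**Figure D5:**
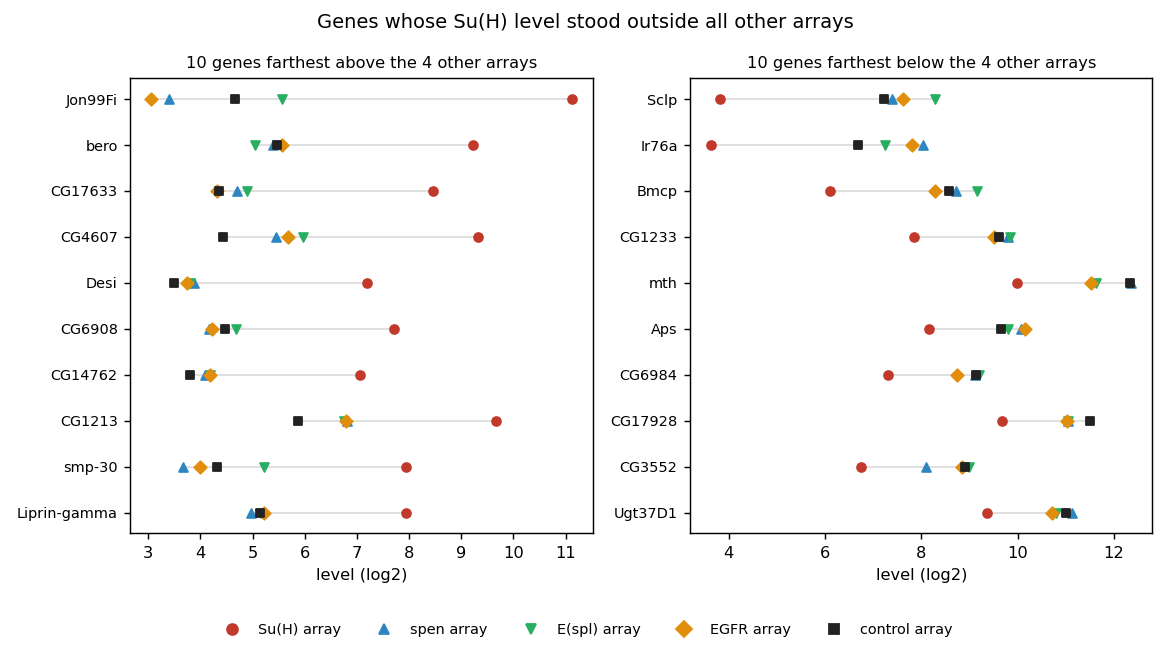
Log2 levels on all 5 arrays for the 10 genes whose Su(H) level lay farthest above (left) and farthest below (right) the 4 other arrays, 1 marker per array, each gene as the mean of its probe sets. Jon99Fi stands at 11.11 on the Su(H) array against at most 5.57 elsewhere, and Sclp at 3.82 against at least 7.22.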

How the data were processed

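RNA of hemocytes pooled per group, 1.0 to 1.3 µg, was amplified with RiboAmp, and 1 µg was labelled and hybridised to Affymetrix Drosophila Genome 2.0 arrays, per the labels' protocols. The authors deposited 1 log2 value per probe set and array. RMA and GCOS are named in the submitters' processing notes, while the sources used here give neither the step each made nor its version. Of 18952 probe sets, 183 manufacturer controls were left out. GEO's platform annotation gave 13647 of the rest 1 gene, 402 several and 4720 none, and only the first were named.

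The comparison was the difference of log2 levels, Su(H) minus control, with 2-fold as the threshold, computed with Python 3.11.15, pandas 2.3.3 and numpy 2.4.6 and tested on simulated data. Figures were drawn with matplotlib 3.10.9. The number of arrays, 1 per group, limits the precision, and no p-value was computed. Genes were named by rule: the 20 largest differences each way, up to 6 per list, the 10 farthest outside all other arrays each way, and Notch pathway genes. Further list members, gene copies and neighbouring genes were picked after their values were seen. The 57 gene lists and the comparison were chosen with earlier results of these data known. Alternatives were the level filter, centring, quantile normalisation, the choice of probe set and the mean of the 3 other mutants as reference. Promoter and other sequences were not used here.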

Additional observations from a re-analysis of the deposited data

How the results depend on the processing

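Replacing the control by the mean of the 3 other mutant arrays changed most. It gave 459 probe sets at least 2-fold higher and 199 lower, against 757 and 1396 with the control. The list medians became 1.02 for muscle, −0.012 for germ line and testis, −1.25 for salivary gland and −0.048 for carbonic anhydrase genes. Of 383 named genes 188 stayed within the pooled probe-set SD of 0.617, 174 moved further and 21 changed sign. Those lower than the control became higher by 0.042 for CAH13, 0.26 for CG13795, 0.17 for COX7AL, 0.024 for Cht12, 0.085 for Cyp312a1, 0.036 for PGRP-SB2, 0.14 for Prosalpha6T, 0.21 for Prosbeta4R1, 0.17 for Prosbeta5R1, 0.17 for RpL10Aa, 0.082 for UQCR-11L, 0.040 for Vha100-3, 0.25 for ap, 0.54 for drl, 0.022 for eIF4E5 and 0.061 for sut3. Those higher than the control came to −0.53 for Rbm13, −0.026 for Ugt36A1, −0.29 for bam, −0.12 for lz and −0.95 for ninaD. Prosbeta4R1 lay below the highest Bacillus probe set on all 4 mutant arrays, as Prosbeta5R1 and COX7AL did on Su(H), spen and E(spl), so these signs cannot be read. Of the 46 lists under 0.5, this reference moved 2 and a filter at level 6 moved 4. The cause was not tested. Without a level filter the median was 0.21 for E(spl) complex genes, 0.064 for carbonic anhydrase genes and 0.064 for trachea and Malpighian tubule genes, since that alternative adds genes dim on both arrays. Median centring and quantile normalisation left all 383 genes and the 11 lists with a median of at least 0.5 in size within that SD, and quantile normalisation gave 910 probe sets higher and 1205 lower, raising the share of higher ones to 43.0% from 35.2%. No paired analysis was possible because each group has 1 array, and for the same reason no array could be left out within a group. Below about the level of the Bacillus probe sets a difference is only a bound.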
